A study of Mus musculus with 12 samples.

Results

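The transition from G1 to S phase is set by cyclin-dependent kinases (CDKs), their cyclin partners and the CDK inhibitors, and the transcripts of 10 of these genes were followed in crypts of the mouse small intestine (SI) and large intestine (LI) and in monolayers grown from them. The 10 genes were 3 kinases (Cdk4, Cdk6 and Cdk2), 4 G1 cyclins (Ccnd1, Ccnd2, Ccnd3 and Ccne1) and 3 inhibitors (Cdkn1a, Cdkn1b and Cdkn2b), out of 55487 genes in the tables. They were picked by symbol, with results from the same libraries already known, so their own levels and changes are given as a description and no p-value is attached to them. All 10 passed the filter on low counts.

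Bulk RNA sequencing covered 12 libraries from C57BL/6 mice, 3 in each of 4 groups. SI crypts and LI crypts, which the labels also call in vivo tissue, were taken fresh from young adult mice, with 1 mouse per library. SI monolayers and LI monolayers were crypts plated on Matrigel and collected after 24 h in control medium, with wells pooled for each library. That medium held Wnt3a, EGF, Noggin and R-spondin-1, and the seeding medium used first held CHIR-99021, EGF, LDN-193189, R-spondin-1, Wnt3a and Y-27632. For the cultures, SI crypts came from jejunum and were released with EDTA alone, while LI crypts were released with collagenase, dispase and EDTA in a medium that held Y-27632; the isolation is not described separately for the crypt libraries. Intestinal region and isolation method therefore cannot be told apart in the monolayers, and neither can attachment, medium and time in culture. For the cultures both regions were taken from the same mice, but which libraries share a mouse is not given. Nothing states that replicate wells came from separate mice, so the spread between monolayer libraries may be technical.

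In the textbook scheme, growth factors raise the D cyclins, which bind Cdk4 or Cdk6 and start the phosphorylation of the retinoblastoma protein. Released E2F factors then raise cyclin E, which activates Cdk2 and carries the cell into S phase. The INK4 inhibitors, such as p15 from Cdkn2b, bind Cdk4 and Cdk6 alone, while the CIP/KIP inhibitors p21 (Cdkn1a) and p27 (Cdkn1b) bind cyclin-CDK complexes more broadly. In the intestine, cells at the crypt base and in the transit-amplifying zone cycle and cells leaving the crypt stop.

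Libraries held 59016196 to 76216530 counts, so a limit of 3 counts lay at 0.0394 to 0.0508 CPM, far under every member, whose lowest raw count was 528 for Ccne1 in an LI crypt library. The 10 genes together took 0.0900% to 0.167% of the counts. Mitochondrial genes took 4.56% to 9.16% of counts in SI crypts, 2.25% to 2.59% in LI crypts and 0.472% to 0.750% in monolayers. The epithelial markers Epcam and Vil1 were abundant in every group, with Epcam at 105267 ± 2697 normalized counts in SI crypts and 93862 ± 1405 in LI monolayers (SD, n = 3). Markers of immune cells were also present in crypts. The pan-leukocyte gene Ptprc was at 3899 ± 944 in SI crypts, 1049.7 ± 165 in LI crypts, 159 ± 17.1 in SI monolayers and 51.4 ± 13.1 in LI monolayers. Values below are the authors' normalized counts, which are raw counts divided by 1 size factor per library, and fold changes are from edgeR on the raw counts. A change was called where the edgeR adjusted p-value was under 0.05 and the fold change at least 2. Levels are compared between genes only per kilobase of the longest transcript.

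**Figure D1:**
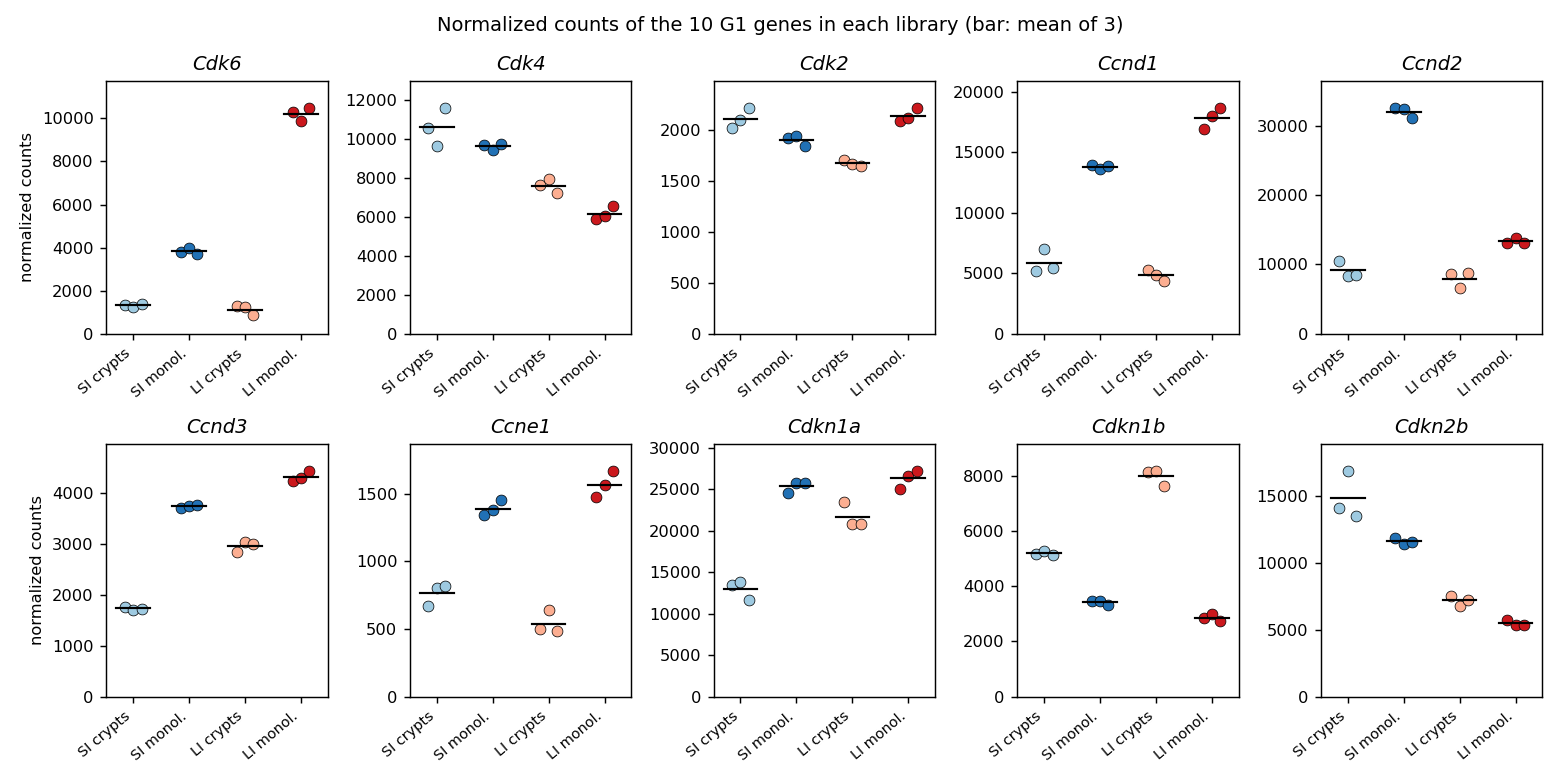
Normalized counts (y axes, each from 0) of the 10 genes in each of the 12 libraries, with the 4 groups on the x axes, 1 point per library and a bar at the mean of 3. Cdk6 in LI monolayers lies at 9863 or more, above all other libraries, and Ccnd2 is at 31106 or more in SI monolayers only.

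Cdk6, a partner of the D cyclins (ENSMUSG00000040274.11, chr5:3341485-3531008, + strand), had the widest fold range of the 10 genes. Its normalized counts were 1322, 1243 and 1387 in SI crypts and 1270.5, 1228 and 883 in LI crypts, groups that overlapped. They were 3792, 3976 and 3698 in SI monolayers and 10282, 9863 and 10477 in LI monolayers. Every monolayer library was above every crypt library, and every LI monolayer library was above every SI monolayer library. Cdk6 thus rose 2.97-fold in SI culture (log2 1.57 ± 0.102, SE) and 9.36-fold in LI culture (log2 3.23 ± 0.107). The third LI crypt library, at 883, gave Cdk6 the largest coefficient of variation of any member in any group, 18.9%. With 1 library left out at a time, that one included, the LI change was 3.08 to 3.31 on the log2 scale.

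Cdk4, the other partner of the D cyclins (ENSMUSG00000006728.12, chr10:127063534-127067920, + strand), did not share that pattern. It stood at 10556, 9629.8 and 11561 in SI crypts, 9688, 9432 and 9726 in SI monolayers, 7627, 7953 and 7199.6 in LI crypts and 5897, 6044 and 6531 in LI monolayers. SI crypts and SI monolayers overlapped, with a log2 change of -0.10 ± 0.065, while LI monolayers all lay under LI crypts, with -0.26 ± 0.065. All SI libraries were above all LI libraries, by 1.43-fold between crypts and 1.59-fold between monolayers. Of the exon bases of Cdk4, 19.7% are shared with Tspan31 on the opposite strand, and since the strand setting of the counting is not stated, reads there cannot be told apart.

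Per kilobase, the balance of the 2 kinases shifted. The level of Cdk4 was 45.0 ± 1.65 times that of Cdk6 in SI crypts and 38.6 ± 6.35 times in LI crypts (SD, n = 3). The ratio was 14.1 ± 0.742 in SI monolayers and 3.39 ± 0.147 in LI monolayers. Cdk6 therefore made up 2.17% of the summed level of both kinases in SI crypts and 2.57% in LI crypts, against 6.62% in SI monolayers and 22.8% in LI monolayers. The sum itself ranged less, from 3796 ± 200.1 normalized counts per kb in LI crypts to 5269 ± 477 in SI crypts. With the union of all exons as the length, the Cdk6 share in LI monolayers was 27.8%.

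The sequence just upstream of Cdk4 is shown for the 4 E-boxes in its window, more than in any other member window. RefSeq windows of 250 bases before a start site (build GRCm38.p6) were searched on both strands for E2F sites (TTTCCCGC, TTTGGCGC, TTTCGCGC and TTTGCCGC), the E-box CACGTG, AP-1 (TGANTCA), CRE (TGACGTCA), TCF (CTTTGAT) and the GC box (GGGCGG). Windows were found for 8 of the 10 members, 10 windows in all, and Ccnd1 and Ccnd2 were not among them. The Cdk4 stretch chr10:127063285-127063533, + strand, has E-boxes and 1 reverse-strand TCF match in capitals:
Cdk4: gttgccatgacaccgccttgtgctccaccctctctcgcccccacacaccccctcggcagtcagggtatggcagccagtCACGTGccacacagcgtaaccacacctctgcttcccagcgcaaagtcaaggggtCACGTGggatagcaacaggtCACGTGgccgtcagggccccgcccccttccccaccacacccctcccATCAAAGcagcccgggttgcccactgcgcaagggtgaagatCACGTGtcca
Counted from the start site, with -1 for the base before it, its 4 E-boxes begin at -172, -118, -98 and -11 and the TCF match at -52. Of 32817 windows, 6.02% held at least 1 E-box and 3.21% a TCF match. Among the other members, Cdk6 had 1 E-box, Cdk2 had 1 E2F match and Cdkn2b 1 CRE, motifs held by 1.86% (E2F) and 1.55% (CRE) of all windows. No member window had an AP-1 match, which 6.75% of all windows had,. GC boxes, in 32.7% of windows, stood in those of Cdk4, Cdk2, Ccnd3, Ccne1, Cdkn1a and Cdkn1b. These are matches of letters and say nothing of binding.

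Cdk2, the kinase that cyclin E activates (ENSMUSG00000025358.16, chr10:128697939-128705031, - strand), varied least, with the smallest fold range of the 10 genes over the 12 libraries. Its counts were 2016, 2103 and 2215 in SI crypts, 1918, 1939 and 1843 in SI monolayers, 1708, 1669 and 1645 in LI crypts and 2088, 2118 and 2215 in LI monolayers. The groups of each region did not overlap, but the log2 differences were -0.12 ± 0.058 in SI culture and 0.40 ± 0.058 in LI culture, both under 2-fold. The largest of its culture and region differences was 1.32-fold, against 9.36-fold for Cdk6.

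Among the D cyclins, Ccnd1 (ENSMUSG00000070348.5, chr7:144929931-144939925, - strand), a target of growth factor and Wnt signalling, rose in both regions. It was at 5153, 7023 and 5398 in SI crypts and 13894, 13588 and 13861 in SI monolayers. It was at 5245, 4858 and 4366 in LI crypts and 16924, 17948 and 18630.1 in LI monolayers. Every monolayer library was above every crypt library, and the fold changes were 2.41 (log2 1.27 ± 0.095) in SI and 3.82 (log2 1.93 ± 0.097) in LI. Exon bases shared with LTO1 on the opposite strand were 23.4% of those of Ccnd1.

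Ccnd2 (ENSMUSG00000000184.12, chr6:127125162-127152193, - strand) had its highest level in SI monolayers. Its counts were 10529, 8364 and 8501 in SI crypts and 32519, 32372 and 31106 in SI monolayers, a rise of 3.59-fold (log2 1.84 ± 0.109). In LI crypts they were 8593, 6534 and 8701 and in LI monolayers 13118, 13822 and 13020.2, 1.73-fold higher (log2 0.79 ± 0.106) and under the 2-fold limit. The monolayers lay above the crypts without overlap in both regions. SI monolayers lay above LI monolayers by 2.45-fold, while the crypts of the regions overlapped.

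Ccnd3 (ENSMUSG00000034165.16, chr17:47505051-47599691, + strand) had the lowest coefficient of variation of any member in any group, 0.798% in SI monolayers. It stood at 1764, 1694 and 1723 in SI crypts, 3705, 3745 and 3763 in SI monolayers, 2839.8, 3033 and 2991 in LI crypts and 4230.0, 4278 and 4426 in LI monolayers. It rose 2.22-fold in SI culture (log2 1.15 ± 0.051). In LI the monolayers were 1.51-fold higher (log2 0.59 ± 0.051), from crypts that were already 1.66-fold above those of SI.

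The summed D cyclin level per kb was 3457 ± 206 in SI crypts and 3310.1 ± 189 in LI crypts. It was 9709 ± 109 in SI monolayers and 7990.2 ± 261 in LI monolayers. The crypt sums of the regions overlapped, and the sum was higher in every monolayer library than in every crypt library. Ccnd2 made up 52.1% ± 0.750 of it in SI monolayers and 26.4% ± 1.06 in LI monolayers. Ccnd1 made up 38.0% ± 0.624 and 59.7% ± 1.06 of it. In crypts the shares of Ccnd1 and Ccnd2 overlapped within each region, at 45.2% ± 6.13 and 41.8% ± 5.62 in SI and at 39.0% ± 3.38 and 37.8% ± 4.26 in LI.

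**Figure D2:**
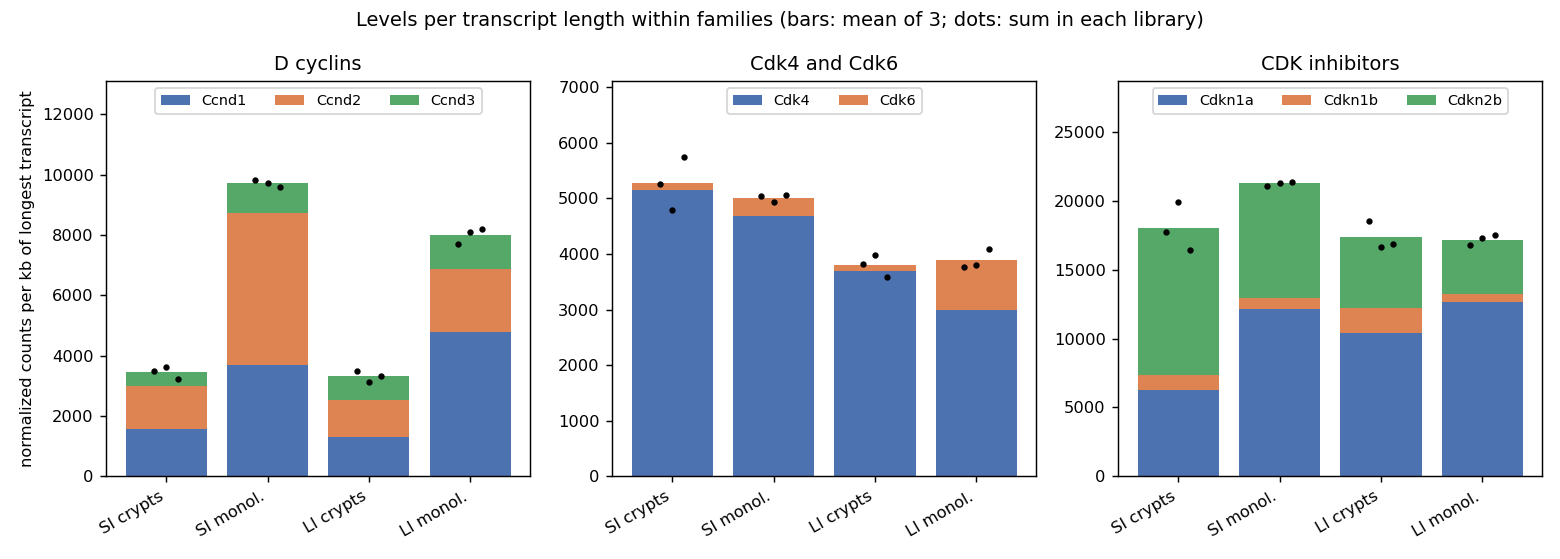
Stacked mean levels of the D cyclins, of Cdk4 and Cdk6, and of the CDK inhibitors (y axes, normalized counts per kb of the longest transcript, from 0) in the 4 groups, with dots for the sum in each library. D cyclin sums run from 3117 to 3638 in crypts and from 7694 to 9813 in monolayers, and the Cdk6 part is thickest in LI monolayers.

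Ccne1, cyclin E1 (ENSMUSG00000002068.16, chr7:38097984-38107534, - strand), had the lowest counts of the cyclins. It was at 670.4, 799.5 and 821 in SI crypts and 1339.9, 1382 and 1451 in SI monolayers. It was at 496, 637 and 484 in LI crypts and 1474, 1562 and 1670.0 in LI monolayers. In LI culture it rose 3-fold (log2 1.59 ± 0.108), and in SI the monolayers were 1.86-fold higher (log2 0.90 ± 0.106), under the limit. All monolayer libraries of Ccne1 were above all crypt libraries of both regions.

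Of the inhibitors, Cdkn1a, which encodes p21 and is a classical p53 target (ENSMUSG00000023067.14, chr17:29090976-29100727, + strand), was lowest in SI crypts. Its counts there were 13512, 13806 and 11667, against 24584, 25757 and 25749 in SI monolayers. In LI crypts they were 23540.0, 20792 and 20857 and in LI monolayers 25063, 26659 and 27251. The 3 groups other than SI crypts spanned 20792 to 27251, and the LI change was log2 0.32 ± 0.064. The SI change of log2 1.0 ± 0.065 lay just under the 2-fold limit and was not called. With 1 library left out it ranged from 0.93 to 1.06 and was at or above the limit in 11 of 12 fits.

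The stretch upstream of the first RefSeq start site of Cdkn1a, chr17:29090729-29090975, + strand, is shown for the p53 response element that it holds, in capitals:
Cdkn1a: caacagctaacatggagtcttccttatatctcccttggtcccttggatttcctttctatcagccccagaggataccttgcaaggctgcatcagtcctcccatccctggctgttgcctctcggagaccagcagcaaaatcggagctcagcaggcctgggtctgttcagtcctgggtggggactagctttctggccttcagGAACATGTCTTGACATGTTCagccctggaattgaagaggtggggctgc
The element begins at -51 and is a pair of adjoining decamers, searched for with at most 1 base off the consensus. The search for it was added after this sequence had been seen. It was found in 25 of the 32817 windows (0.0762%), and among the windows of the members in this one alone.

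Cdkn1b, which encodes p27 (ENSMUSG00000003031.14, chr6:134920401-134925513, + strand), went the other way. It stood at 5174, 5289 and 5127 in SI crypts and 3473, 3457 and 3300.0 in SI monolayers, a log2 difference of -0.57 ± 0.049. It stood at 8146, 8179 and 7614 in LI crypts and 2827, 2977 and 2729 in LI monolayers, and fell by 1.44 ± 0.050 on the log2 scale. LI crypts held the most Cdkn1b and LI monolayers the least, with no overlap between any of the groups.

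Cdkn2b, which encodes the INK4 inhibitor p15 (ENSMUSG00000073802.5, chr4:89306299-89311039, - strand), differed mainly by region. Its counts were 14064, 16862 and 13468 in SI crypts and 11835, 11410.4 and 11549.5 in SI monolayers. They were 7539, 6751 and 7229.95 in LI crypts and 5753, 5319 and 5316 in LI monolayers. All SI libraries were above all LI libraries, by 2.12-fold in crypts (log2 1.08 ± 0.071) and 2.17-fold in monolayers (log2 1.11 ± 0.072). The culture differences were log2 -0.32 ± 0.071 in SI and -0.35 ± 0.071 in LI. The crypt difference rested near the limit, since it was 0.99 without the second SI crypt library, the highest at 16862, and was then not called.

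Summed per kb, the 3 inhibitors reached 18035 ± 1770.1 in SI crypts, 21287 ± 168.1 in SI monolayers, 17361 ± 1021 in LI crypts and 17211 ± 366 in LI monolayers. The make-up changed more than the sum. Cdkn1a made up 34.7% ± 1.71 of it in SI crypts and 57.3% ± 1.09 in SI monolayers. In LI its share was 60.1% ± 0.877 in crypts and 73.5% ± 1.62 in monolayers. With this length Cdkn2b was the larger part only in SI crypts, at 58.95% ± 1.93, whereas with the union of exons it was also the larger part in SI monolayers, at 51.4% ± 1.03.

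Counted over the 10 genes, 4 rose (Cdk6, Ccnd1, Ccnd2 and Ccnd3) and 0 fell in SI culture, where 9.71% of the 19581 tested genes were called higher and 16.4% lower. In LI culture 3 rose (Cdk6, Ccnd1 and Ccne1) and Cdkn1b fell, where 14.5% of genes were called higher and 23.5% lower. At an adjusted p-value under 0.05 with any fold change, 8 members passed in SI and 10 in LI, against 59.6% and 68.7% of all genes. Crypts and monolayers did not overlap for 9 members in SI, all but Cdk4, and for 10 in LI, against 66.4% and 73.1% of all genes. The median log2 change of the members was 0.95 in SI and 0.50 in LI, beside medians of -0.05 and -0.05 over all tested genes. Since the genes were picked with these results known, the counts describe them and support nothing further. Markers of immune cells moved with the same contrast, as given below, and in bulk tissue fewer cells of a type cannot be told apart from less RNA per cell.

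**Figure D3:**
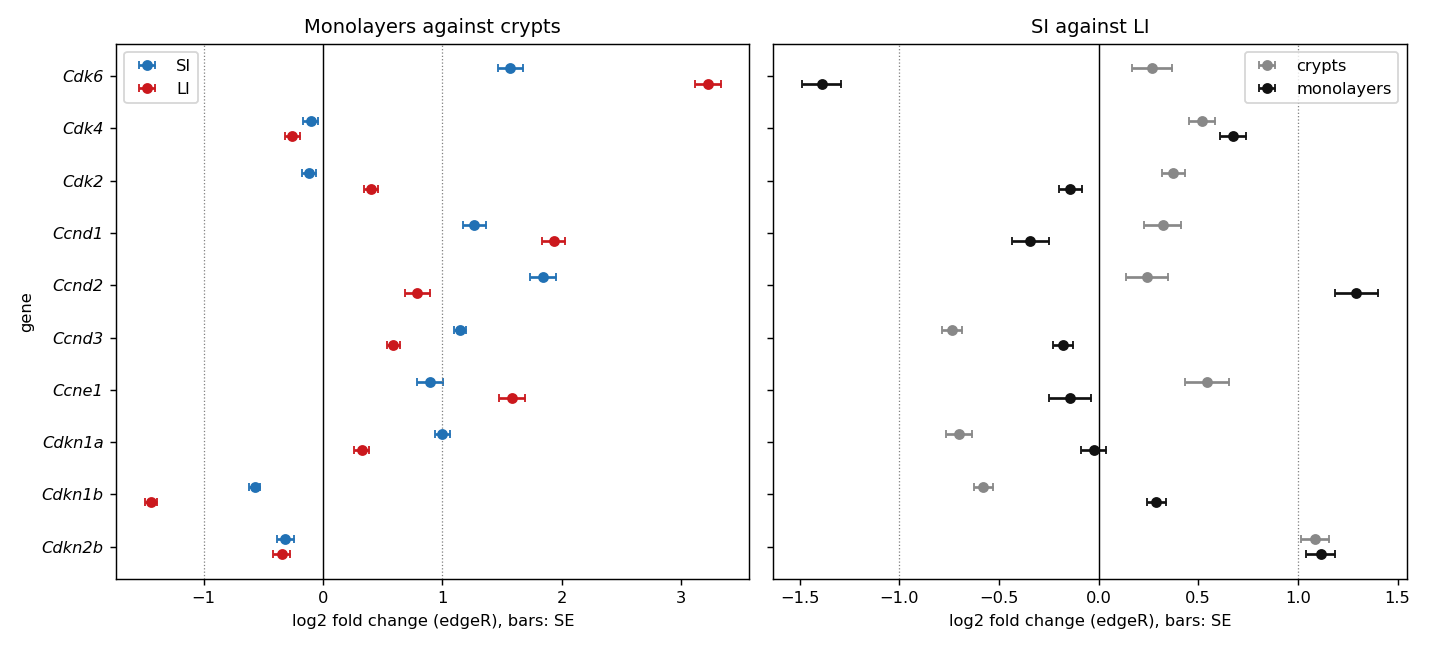
edgeR log2 fold changes (x axes) of the 10 genes (y axis) with SE, monolayers against crypts in SI and LI on the left and SI against LI in crypts and monolayers on the right, with dotted lines at 2-fold. Cdk6 lies furthest right in LI culture at 3.23 and furthest left between monolayers at -1.39.

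Between regions, Cdkn2b was the 1 member called higher in SI crypts than in LI crypts and 0 were called lower, where 11.6% and 11.1% of all genes were. Between monolayers, Ccnd2 and Cdkn2b were called higher in SI and Cdk6 was called lower, at 2.62-fold (log2 -1.39 ± 0.099), where 12.4% of all genes were called higher and 8.88% lower. With any fold change, 9 members passed between crypts and 8 between monolayers, against 53.9% and 51.8% of genes. The regions did not overlap for 7 members in crypts and for 9 in monolayers, against 58.8% and 62.3% of genes. The median difference of the members was 0.29 in crypts and -0.08 in monolayers, beside 0.06 and 0.02 over all genes. These comparisons share their libraries with the culture comparisons, so they are not separate evidence.

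The culture change in SI minus that in LI was called for 2 members. It was -1.66 ± 0.141 on the log2 scale for Cdk6, whose rise was larger in LI, and 1.05 ± 0.150 for Ccnd2, whose change was larger in SI. Over all genes 11.4% were called higher and 8.51% lower in this contrast, and 46.3% passed with any fold change, against 8 members. The other values were 0.87 for Cdkn1b, 0.68 for Cdkn1a, 0.56 for Ccnd3, -0.69 for Ccne1, -0.66 for Ccnd1, -0.52 for Cdk2, 0.15 for Cdk4 and 0.03 for Cdkn2b. The median was 0.09 for the members and 0.00 over all genes. The value of Ccnd2 fell to 0.99 without the second SI crypt library and to 0.97 without the third LI crypt library, and was then not called. Just inside the 2-fold limit lay Ccnd2 here and Cdkn2b between crypts, and just outside it Cdkn1a in SI culture and Ccne1 in SI culture at 0.90.

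By level per kb of the longest transcript, the order of the members differed between groups. In SI crypts Cdkn2b was highest at 10646 ± 1304 normalized counts per kb, followed by Cdkn1a at 6248 ± 558 and Cdk4 at 5155 ± 470.5, with Cdk6 last at 114 ± 6.29. Of neighbours in that order, Cdkn1a and Ccnd1 each overlapped with the next gene, Cdk4 and Ccnd2. In SI monolayers Cdkn1a led at 12194 ± 325, Ccnd2 had moved up to the third place at 5055 ± 123 and Cdk6 was again last at 332 ± 12.2, with Cdkn1b and Ccne1 overlapping.

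In LI crypts Cdkn1a led at 10447 ± 754 and Cdk6 was last at 97.8 ± 18.5, with Ccnd1 and Ccnd2 overlapping. In LI monolayers Cdkn1a at 12656 ± 544 was followed by Ccnd1 at 4768 ± 229.6, Cdk6 stood in the seventh place at 886 ± 27.2 and Cdkn1b was last at 625 ± 27.4, overlapping with Cdk2. With the union of exons as the length, 6 members in SI crypts, 5 in SI monolayers, 10 in LI crypts and 4 in LI monolayers kept their rank. With that length Cdkn2b led in SI monolayers, at 8344 ± 156 against 7139 ± 190.0 for Cdkn1a, and in LI monolayers Cdkn1b moved from the tenth to the seventh place and Ccnd3 from the sixth to the ninth.

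The shape of the profile over the 12 libraries was compared by the root mean square difference of centred log2 values, a description that carries no test. The closest members were Ccnd3 and Cdkn1a, at 0.145, followed by Ccnd1 and Ccne1 at 0.248 and Cdk4 and Cdkn2b at 0.301. The most unlike were Cdk6 and Cdkn1b, at 1.84. Cdk6 had no close partner among the members, its nearest being Ccnd1 at 0.565. Among 14156 tested genes with a mean of at least 50 normalized counts, the 5 nearest to Cdk6 were Tjp1 (tight junctions) at 0.196, Arhgap29 (a GTPase activating protein) at 0.207, Cfap157 at 0.214, Actn1 (actin crosslinking) at 0.217 and Pmaip1 (a p53-responsive BH3-only gene) at 0.222. Tjp1, for example, was at 6391 ± 391 in SI crypts, 6168 ± 414 in LI crypts, 19997 ± 294 in SI monolayers and 42577 ± 671 in LI monolayers. The same 5 genes were found with a pseudocount of 10 and on log2 CPM values.

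Around the members, 33 other regulators of the G1/S transition were tested. In SI culture 2 rose (Cdk3-ps and Myc) and 2 fell (Cdkn2c and Cdkn2d), while 29 were not called, with a median log2 change of 0.28 beside the -0.05 of all tested genes in either culture comparison. In LI culture 5 rose (Cdk3-ps, Myc, E2f7, E2f1 and Fbxw7) and 3 fell (Cdkn2d, Cdkn2c and Rbl2), with a median of 0.48. Of all tested genes, 9.71% were called higher and 16.4% lower in SI culture, and 14.5% and 23.5% in LI culture. Myc, a transcription factor that raises G1 genes, went from 2606 ± 228 to 10354 ± 158 in SI (log2 2.02 ± 0.071 (SE), adjusted p = 1.34e-12). In LI it went from 1736 ± 169 to 14966 ± 419 (log2 3.15 ± 0.074 (SE), adjusted p = 5.2e-15). Its rise, like that of Cdk6, was larger in LI, with a difference of SI minus LI of -1.13 (adjusted p = 1.27e-07). Cdk3-ps, named as a pseudogene of the kinase Cdk3, was low throughout, at 20.5 ± 6.8 in SI crypts and 228 ± 47.7 in LI monolayers.

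Of the other INK4 genes, Cdkn2c (p18) fell in SI (log2 -1.07 ± 0.093 (SE), adjusted p = 4.81e-08) and in LI (log2 -1.30 ± 0.094 (SE), adjusted p = 3.09e-09). Cdkn2d (p19) fell in both (log2 -1.03 in SI and -2.11 in LI, adjusted p = 1.69e-07 and 2.16e-11), from 1256 ± 90.3 in LI crypts to 282 ± 18.7. Cdkn2a, the neighbour of Cdkn2b on the chromosome, was barely expressed but was higher in SI than in LI, at 29.7 ± 12.4 against 5.2 ± 0.64 in crypts (log2 2.52 ± 0.478 (SE), adjusted p = 0.000304) and 56.7 ± 9.38 against 7.31 ± 3 in monolayers (adjusted p = 4.26e-05). It was singled out after its values had been seen, so these p-values describe the gene and support nothing further. Its values in single LI libraries were only 4.46 to 5.64 in crypts and 3.85 to 9.18 in monolayers. With the stricter filter on counts in every library, given below, no regulator was called higher in SI than in LI monolayers. The Cdkn2a call there thus depended on the filter. The pocket proteins Rb1, Rbl1 and Rbl2 were lower in monolayers at an adjusted p-value under 0.05 in both regions, and of them Rbl2 in LI passed the fold limit (log2 -1.02 ± 0.065 (SE), adjusted p = 5.76e-10). Between regions, Cdkn2a and Mycn were called higher in SI crypts and 0 regulators lower, where 11.6% and 11.1% of all genes were. Between monolayers Cdkn2a was higher in SI, and Cdk3-ps and Cdkn1c were lower, beside 12.4% and 8.88% of all genes.

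**Figure D4:**
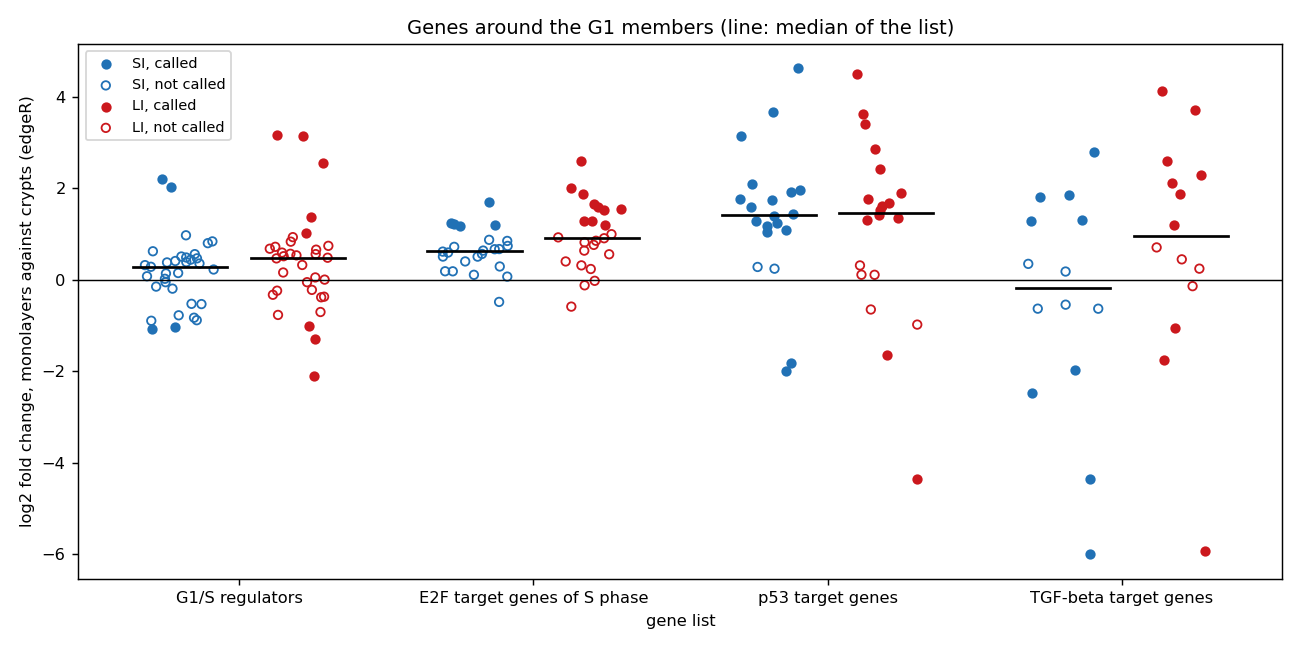
edgeR log2 fold changes of monolayers against crypts (y axis) for every gene of 4 lists (x axis) in SI and LI, filled where called, with a line at the median of each list. Medians are 0.63 and 0.92 for E2F targets and 1.41 and 1.46 for p53 targets in SI and LI.

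Downstream of the cyclins, 24 E2F targets used in S phase were tested. In SI culture 5 rose (Mybl2, Mcm3, Orc1, Cdc6 and Rrm2) and 0 fell, with a median of 0.63. In LI culture 10 rose and 0 fell, with a median of 0.92. Beside them, 9.71% of all genes were called higher and 16.4% lower in SI, and 14.5% and 23.5% in LI. Mybl2, a transcription factor of cycling cells, rose by log2 1.71 ± 0.116 (SE) in SI (adjusted p = 1.84e-08) and 2.59 ± 0.120 (SE) in LI (adjusted p = 1.75e-10). Mcm3, a subunit of the replicative helicase, rose by log2 1.24 ± 0.086 (SE) in SI (adjusted p = 7.79e-09), and the licensing factor Cdc6 by 2.01 ± 0.092 (SE) in LI (adjusted p = 1.13e-11). In crypts, 2 of the 24 were called higher in SI, Mybl2 among them, and Orc1 was called lower. Of all genes, 11.6% and 11.1% were. Between monolayers edgeR and DESeq2 each called 0 of the 24 in either direction. By edgeR 11 had an unadjusted and 9 an adjusted p-value under 0.05. Over all genes, edgeR called 12.4% higher and 8.88% lower there, and 51.8% had an adjusted p-value under 0.05.

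Of 20 p53 targets other than Cdkn1a, 16 rose and 2 fell (Sesn1 and Fas) in SI culture, with a median of 1.41. In LI culture 13 rose and the same 2 genes fell, with a median of 1.46. The shares of all genes called higher and lower were 9.71% and 16.4% in SI and 14.5% and 23.5% in LI. Phlda3, an inhibitor of Akt signalling, was at 132 ± 15.9 in SI crypts, 3181 ± 105 in SI monolayers, 176 ± 41.2 in LI crypts and 3854 ± 293 in LI monolayers (log2 4.63 and 4.50, adjusted p = 1.83e-12 and 5.58e-13). Eda2r, a receptor of the TNF receptor family, rose by log2 3.67 and 3.63 (adjusted p = 7.97e-09 and 1.14e-09). Fas, the death receptor, fell (log2 -1.83 in SI and -4.35 in LI, adjusted p = 1.08e-08 and 1.28e-12), and the stress gene Sesn1 fell (log2 -1.998 in SI and -1.64 in LI, adjusted p = 1.2e-09 and 1.88e-08). Next to these genes, the changes of Cdkn1a, 1.0 in SI and 0.32 in LI, were under the median of the list in both regions.

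TGF-beta is known to raise Cdkn2b, and 14 of its other targets were tested. In SI culture 5 rose (Itgb6, Ccn2, Tgif1, Bhlhe40 and Pmepa1) and 4 fell (Tgfbi, Smad6, Fn1 and Smad7), with a median of -0.18. In LI culture 7 rose and 3 fell (Smad6, Tgfbi and Smad7), with a median of 0.95. Among all genes, 9.71% were called higher and 16.4% lower in SI, and 14.5% and 23.5% in LI. Itgb6, a subunit of an integrin that activates TGF-beta, and the matrix-associated Ccn2 led in SI, at log2 2.79 ± 0.124 (SE) (adjusted p = 2.42e-10) and 1.85 ± 0.469 (SE) (adjusted p = 0.00704). Pmepa1, a feedback inhibitor, rose by log2 3.71 ± 0.076 (SE) in LI (adjusted p = 1.32e-15). The matrix protein gene Tgfbi fell from 24868 ± 4158 to 376 ± 36.9 in SI (log2 -6.01, adjusted p = 6.19e-07), and the inhibitory Smad6 fell in both regions (log2 -4.37 and -5.94, adjusted p = 1.27e-12 and 6.28e-14).

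Markers of other cells moved with the culture comparison, in which 9.71% of all genes were called higher and 16.4% lower in SI. In LI these shares of all genes were 14.5% and 23.5%. Of 14 immune markers, 11 fell and Cd68 rose in SI, and 12 fell and Cd68 rose in LI. Their summed normalized counts were 15468 to 17871 in SI crypts and 3486 to 3836 in SI monolayers. In LI they were 3793 to 4266 in crypts and 629 to 771 in monolayers. Most of the sum in SI monolayers was Lyz2, at 3012 ± 1709 in SI crypts, 2710 ± 174 in SI monolayers and 41.0 ± 2.18 in LI monolayers. The gap between the monolayer sums is therefore mainly that of 1 gene. The paper stained lysozyme to mark Paneth cells, which it reported in SI monolayers and not in LI monolayers. Whether the Lyz2 counts came from immune or Paneth cells was not tested. Marker by marker, 7 of the 14 were called higher in SI than in LI crypts and 1 lower, where 11.6% and 11.1% of all genes were. Between monolayers 8 were called higher in SI and 3 lower, beside 12.4% and 8.88% of all genes. The T cell gene Cd3e was at 632 ± 154 in SI crypts and 27.3 ± 4.82 in SI monolayers, and the B cell gene Cd79a was listed at 0 in 2 SI monolayer libraries. Of 12 mesenchymal markers 3 fell in SI (Dcn, Pecam1 and Pdgfrb), while in LI 3 rose (Pdgfra, Lum and Vim) and 4 fell (Myh11, Des, Dcn and Pdgfrb). Myh11 and Des were high in the first LI crypt library only, at 675.7 and 496 against at most 47.6 and 36.6 in the others. With 1 library left out, 5 to 7 of these markers were called in LI. The sums of the mesenchymal markers were 1470.3 to 3280.4 in SI crypts and 1550.1 to 2229 in SI monolayers. In LI they were 3577 to 6111 in crypts and 4388 to 5958 in monolayers. Pdgfra, a fibroblast marker, went from 29.2 ± 19.4 to 260.5 ± 47.9 in LI (log2 3.20 ± 0.478 (SE), adjusted p = 3.08e-05), and Col1a1 was at 591 ± 135 and 1156 ± 543 there. No marker of either list was at 0 in all libraries of a group. The part of these markers and of the mitochondrial share in the changes of the 10 genes was not tested.

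Transcripts of epithelial cell types changed too, and numbers of cells cannot be read from them. Over all tested genes, 9.71% were called higher and 16.4% lower in SI culture. In LI culture these shares were 14.5% and 23.5%. Of 10 epithelial markers 5 rose (Krt18, Krt19, Krt8, Cdh1 and Cldn3) and 0 fell in SI, and in LI 3 rose (Krt18, Krt19 and Cdh1) and Krt20 fell. Of 12 enterocyte markers 7 fell in SI and 5 in LI (Car1, Fabp2, Slc5a1, Slc26a3 and Aqp8), and 0 rose. Of 10 crypt stem cell markers 2 fell in SI (Olfm4 and Axin2) and 5 in LI (Ascl2, Smoc2, Axin2, Lgr5 and Lrig1), and 0 rose. Without the first LI crypt library, 6 enterocyte markers were called higher in LI culture beside 5 lower, and without the first SI crypt library 5 mesenchymal markers were called in SI in place of 3.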

How the data were processed

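The authors sequenced paired-end reads on an Illumina HiSeq, aligned them to GRCm38 with STAR 2.7.9a and counted reads per gene of GENCODE vM25 with featureCounts 2.0.2, per the paper and the labels. Whether strand was used and how mates were counted is not given in the sources used here. The authors deposited raw counts per gene and a table of normalized signal, made by dividing each library by its DESeq2 size factor (0.850 to 1.12) without a log transform.

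Here, edgeR 4.0.16 (R 4.3.3) tested the deposited counts in 1 model of 4 group means with filterByExpr (19581 genes kept), TMM and robust quasi-likelihood tests, and p-values were adjusted by Benjamini-Hochberg over all tested genes in each of 5 comparisons. Genes with an adjusted p under 0.05 and at least 2-fold change in either direction were called. The median biological coefficient of variation was 0.127. DESeq2 1.42.0, other scalings, other filters, a replicate block and leaving out each library were alternatives. The code was tested on simulated data. Between libraries of a group, the median squared difference over well-counted genes was 4.44 to 16.7 times that expected from independent counts. Of counts from 1 to 20, 73.4% to 77.4% were even, so a count may be a read of a pair rather than a fragment.

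The members and all lists were chosen with earlier results of these data known. Of 149 list genes, 146 matched by symbol and 3 by synonym. The text names all members, and from each of the lists of regulators, E2F, p53 and TGF-beta targets the 2 called genes with the largest rise and fall per culture comparison, plus defining markers of other cells. Genes outside this rule are named where a count is 5 or fewer, after their values were seen. Some list genes are not reported here by name. Positions, lengths and exon sharing come from GENCODE annotation of GRCm38, and promoter windows from RefSeq (GRCm38.p6). Limits of 3 counts cover counting error only.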

Additional observations from a re-analysis of the deposited data

Results flagged for a closer look

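The change from crypts to monolayers differed between SI and LI, by at least 2-fold and at an adjusted p-value under 0.05 in the edgeR test of the difference, for 26 of the genes named here. Values are the SI change minus the LI change on the log2 scale, after the changes themselves. Among the members, Cdk6 changed by 1.57 in SI and 3.23 in LI, a difference of -1.66, and Ccnd2 by 1.84 and 0.79, a difference of 1.05. Both were picked with these results known, so the differences are descriptions.

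The other 24 genes belonged to the lists. Of the regulators, Myc changed by 2.02 and 3.15, a difference of -1.13 (adjusted p = 1.27e-07), and Cdkn2d by -1.03 and -2.11, a difference of 1.08 (adjusted p = 1.2e-05). E2f7 differed by -1.71 (adjusted p = 3.41e-06) and Mycn by -1.38 (adjusted p = 0.0037). The p53 target Fas changed by -1.83 and -4.35, a difference of 2.53 (adjusted p = 1.13e-07), and Pmaip1 by 1.91 and 3.42, a difference of -1.51 (adjusted p = 6.67e-08). Among the TGF-beta targets, Pmepa1 differed by -2.42 (1.29 and 3.71, adjusted p = 4.39e-11), Tgfbi by -4.26 (-6.01 and -1.75, adjusted p = 0.000165) and Smad6 by 1.57 (-4.37 and -5.94, adjusted p = 5.65e-05). Fn1 differed by -3.18 (adjusted p = 0.000835) and Bhlhe40 by 1.06 (adjusted p = 5.2e-08).

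Of the crypt stem cell markers, the difference was 5.43 for Ascl2, 3.61 for Smoc2, 3.58 for Lgr5, 2.97 for Axin2 and 1.65 for Lrig1, each with the lower change in LI. Olfm4 differed the other way, by -6.07 (-6.09 in SI and -0.01 in LI). Of the markers of differentiated and other cells, it was 5.96 for Car1, 1.72 for Aqp8, 1.41 for Krt20, -3.28 for Pdgfra, -1.56 for Vim and -1.32 for Pecam1. Cd79a, listed at 0 in 2 SI monolayer libraries, differed by -5.42. Adjusted p-values for these 13 markers, all from edgeR, were at most 0.0249.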

How the results depend on the processing

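Of 390 values under other settings, 358 kept their direction and side of the threshold, 32 came to pass it and 0 changed sign. These include the main fit with no minimum fold change, which is not a refit and cannot change a sign. Most of the 32 came from dropping that minimum. Of 600 refitted with 1 library left out, 580 kept both, 12 came to pass, 3 were lost and 5 changed sign. Those 5 lay near 0: Cdkn1a between monolayers ran from -0.0284 to 0.0331, positive without SI monolayer library 1 (0.0291), LI monolayer library 2 (0.0102) or LI monolayer library 3, and the region difference of the Cdkn2b change ran from -0.0286 to 0.179, negative without SI crypt library 1 (-0.0055) or 3. In SI culture, Cdkn1a was 0.96 with RLE or upper quartile scaling and with DESeq2, 0.93 with at least 10 counts in every library, 1.01 with no filter and 1.03 with only the SI groups fitted. The region difference of Cdkn1b reached 1.01 without LI monolayer library 2. Upper quartile scaling moved the median LI culture change of all genes by -0.119.

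With no minimum fold change, the calls were 8, 10, 9, 8 and 8 members, 29, 28, 23, 22 and 16 regulators and 20, 21, 21, 9 and 17 E2F targets in SI culture, LI culture, between crypts, between monolayers and in the difference, and 8 and 8 epithelial and 8 and 8 stem cell markers in the culture comparisons. With at least 10 counts in every library, fewer genes were tested and the calls were 1 regulator between crypts and 1 between monolayers, 6 and 7 immune markers in SI and LI, 2 mesenchymal markers in LI and 1 stem cell marker in SI. Upper quartile scaling left 0 E2F targets called in the difference. Leaving out 1 library gave 0 to 1 members between crypts, 1 to 3 in the difference, 0 to 2 E2F targets in the difference, 2 to 5 mesenchymal markers in SI and 5 to 11 enterocyte markers in LI.

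Same-numbered libraries of different groups did not deviate together (correlations of -0.05 to 0.06 over 18 pairs, against up to 0.10 for other numbers), so the numbers were not used to pair libraries. With the replicate number as a block, the Cdkn1a change in SI was 1.0015, just past the limit, and no other call of a member changed. The 79 results refitted this way also held counts of calls per list. Those counts were checked only for large shifts, and none was found.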
